A study of Neurospora crassa with 22 samples.

Results

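In *Neurospora crassa*, DNA methylation is laid down in heterochromatin through a chain of chromatin proteins that acts in order. The histone methyltransferase DIM-5 methylates histone H3 at K9 as part of a complex known as DCDC, which also holds DIM-7, DIM-9, the DDB1-type protein DIM-8 and the cullin scaffold CUL4. Heterochromatin protein HP1, the product of *hpo*, binds the methylated histone and brings in DIM-2, the DNA methyltransferase, while DMM-1 keeps the methylated domains from spreading into neighbouring genes. The 8 genes of this machinery were taken by their identifiers from the 9730 genes in an RNA-seq table of a wild-type strain and an *hH1* mutant. They are *dim-5* (NCU04402), *dim-7* (NCU04152), *dim-9* (NCU01656), *dim-8* (NCU06605, also *ddb-1*), *cul-4* (NCU00272), *hpo* (NCU04017), *dim-2* (NCU02247) and *dmm-1* (NCU01554).

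Both strains were grown from conidia for 5 hr in Vogel's minimal medium with glucose. From total RNA depleted of ribosomal RNA, 3 libraries were made for each strain, with strand kept. The *hH1* gene encodes linker histone H1, the single H1 of this fungus, and the mutant is described by the labels as *hH1* only. The study kept wild types of both mating types, an *hH1* deletion strain and an *hH1* strain inactivated by RIP, and its methods do not say which pair gave the RNA. Nothing in the sources says whether the libraries of a strain came from separate cultures, so p-values measure only the spread between these libraries, which may be technical. Values are FPKM, fragments scaled to transcript length and library size, so levels of different genes can be set side by side. Libraries of a strain are counted from the first to the last in the order of the table.

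The labels were first checked on the targeted gene. The wild-type libraries held 266, 327 and 293 FPKM of *hH1* (NCU06863) and the mutant libraries held 9.35, 2.06 and 3.22 FPKM, so every mutant library was below every wild-type library (exact permutation test, two-sided, p = 0.1, the smallest that 3 against 3 libraries allow). Nearly all of what the mutant libraries held was put on transcript T1 (9.34, 1.71 and 3.22 FPKM, against 4.45, 3.01 and 6.37 FPKM in the wild type), while transcript T0 was at most 0.353 FPKM in the mutant and up to 324 FPKM in the wild type. The strains differed in more than *hH1*, since *matA-1* (NCU01958), a gene of the *mat A* mating type, had 2.60, 1.75 and 3.83 FPKM in the mutant libraries and was listed at 0 in all 3 wild-type libraries. A loss of H1 and a difference in strain background cannot be told apart in these libraries. None of the 8 genes lies on LG I, where the mating type locus is. No map of other differences between the strains was available, so this does not set the 8 genes apart from the background. Depth, estimated from the steps of low values, was 5310000 to 11100000 fragments per library. The first mutant library listed 2185 genes at 0, against 1577 to 1712 in the other 5.

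All 8 genes were expressed in each of the 6 libraries, and all passed the filter for testing, a mean of at least 1 FPKM. Each has 1 annotated transcript in the table, as do 90.8% of all genes, so none of their values depends on how reads were divided among transcripts. The wild-type means ran from 4.54 FPKM for *dim-7* to 40.7 FPKM for *hpo*. Of all 9730 genes, 19.1% had a higher wild-type mean than *hpo*, 32.5% a higher one than *cul-4*, 39.7% than *dmm-1* and 46.2% than *dim-8*. The share was 53.3% for *dim-2*, 55.1% for *dim-5*, 60.1% for *dim-9* and 61.7% for *dim-7*. *dim-8*, *dim-2* and *dim-5* thus stood near the middle of all genes, with *hpo*, *cul-4* and *dmm-1* above it and *dim-9* and *dim-7* below it.

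**Figure D1:**
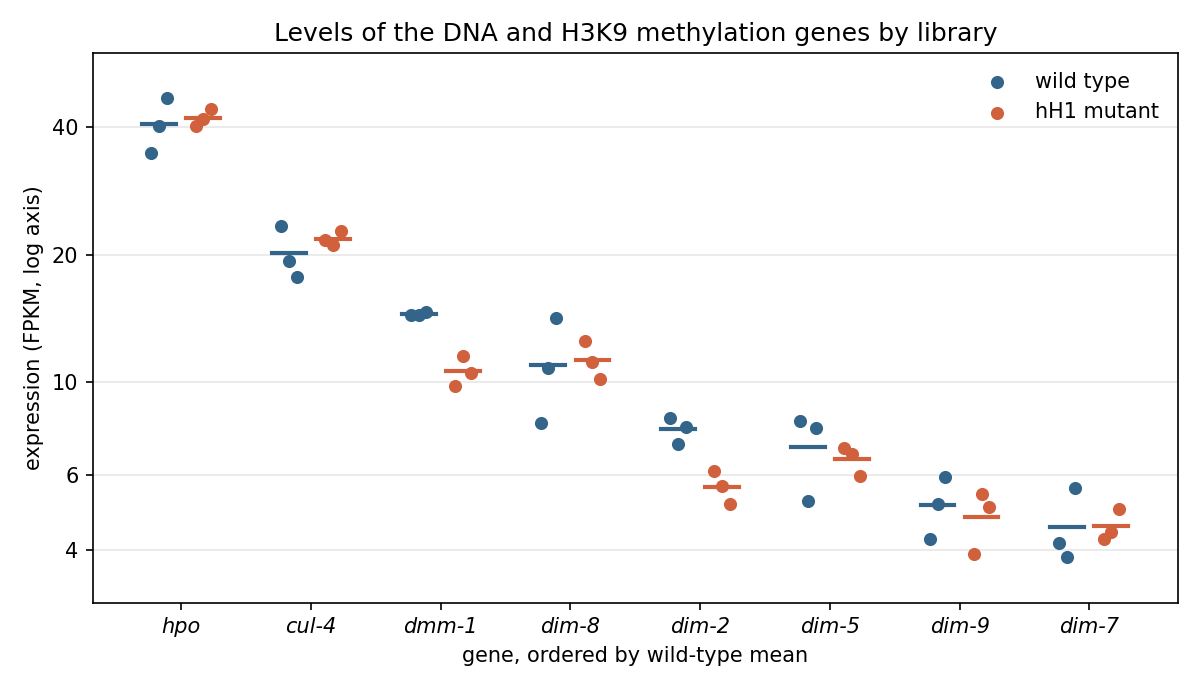
Expression of the 8 genes in FPKM (vertical log axis) by gene, ordered by wild-type mean. Points are single libraries (3 wild-type, 3 *hH1* mutant) and lines are strain means. The mutant libraries of *dim-2* (5.13 to 6.14 FPKM) and *dmm-1* (9.77 to 11.5 FPKM) sit below all wild-type libraries, and the strains overlap in the other 6 genes.

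*dim-5* encodes the catalytic subunit, the H3K9 methyltransferase, and lies on LG IV (3480589 to 3482273 of NC12). Its level in the wild-type libraries was 8.07, 5.21 and 7.78 FPKM, and in the mutant libraries 6.97, 6.75 and 5.99 FPKM. The 3 mutant values lay inside the wild-type range, which was set by the low second wild-type library. The log2 difference, mutant minus wild type on the log2(FPKM + 1) scale, was -0.07 (95% confidence interval -0.51 to 0.38, adjusted p = 0.858, limma with Benjamini-Hochberg adjustment over all 7208 genes tested). The values rest on an estimated 47 to 128 fragments per library, the fewest of the 8 genes. Counting alone would give a coefficient of variation of 10.9% in the wild type, where 22.4% was observed.

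*dim-7* encodes the protein that brings DIM-5 to its sites and lies on LG V (5011283 to 5014974). The wild-type libraries gave 4.15, 3.85 and 5.61 FPKM. The mutant libraries gave 4.24, 4.42 and 4.99 FPKM, again inside the wild-type range. The means, 4.54 ± 0.941 and 4.55 ± 0.393 FPKM (SD, n = 3), were closer than for any other of the 8 genes. The log2 difference was 0.01 (95% confidence interval -0.45 to 0.48, adjusted p = 0.968 from limma), so a mutant to wild-type ratio anywhere from 0.735 to 1.39 lay within its error.

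*dim-9* encodes a DDB1- and CUL4-associated factor and lies on LG II (2791337 to 2795556). Wild-type levels were 4.24, 5.15 and 5.93 FPKM, and mutant levels were 3.91, 5.42 and 5.05 FPKM. The strains overlapped, with the lowest value in the first mutant library and the highest in the last wild-type library. Its log2 difference was -0.08 (95% confidence interval -0.54 to 0.39, adjusted p = 0.841 from limma).

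*dim-8*, the DDB1 homolog that ties such factors to the cullin, lies on LG IV (1782124 to 1786149). It was the least even of the genes in the wild type, at 7.97, 10.7 and 14.1 FPKM, a coefficient of variation of 28.3%. The mutant values of 12.5, 11.1 and 10.1 FPKM lay inside that range. Counting alone would give 5.65% in the wild type, so most of that spread was not set by depth. The log2 difference was 0.06 (95% confidence interval -0.39 to 0.51, adjusted p = 0.871 from limma).

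*cul-4* encodes the scaffold of this ubiquitin ligase and lies on LG III (3248301 to 3251897). It was the highest of the DCDC genes in every library, with 23.4, 19.3 and 17.7 FPKM in wild-type and 21.6, 21.1 and 22.7 FPKM in mutant libraries. The first wild-type library was above the mutant libraries and the other wild-type libraries were below them. The log2 difference was 0.12 (95% confidence interval -0.21 to 0.44, adjusted p = 0.630 from limma).

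The 5 DCDC genes summed to 47.8, 44.3 and 51.2 FPKM in the wild-type libraries and to 49.2, 48.8 and 48.9 FPKM in the mutant libraries. The mutant sums were nearly equal (SD 0.222 FPKM, n = 3) and lay inside the wild-type range. Counting alone would give coefficients of variation of 4.43% for *cul-4* and 5.90% for *dim-8* in the mutant. The mutant sums were thus closer than their depth would make them on average. The share of a gene in this sum does not depend on how a library was scaled. *cul-4* held 42.4 ± 7.25% of it in the wild type and 44.6 ± 1.70% in the mutant (SD, n = 3). *dim-8* held 22.9 ± 5.63% and 22.9 ± 2.31%, and *dim-5* held 14.6 ± 2.61% and 13.4 ± 1.02%. The smallest shares were those of *dim-9*, 10.7 ± 1.58% and 9.79 ± 1.65%, and *dim-7*, 9.44 ± 1.32% and 9.30 ± 0.825%. The shares of the DCDC genes differed between the strains by less than the spread of the wild-type libraries in each case. Within the wild type, *cul-4* and *dim-8* went opposite ways, with *cul-4* at its highest share and *dim-8* at its lowest in the first library and the reverse in the last.

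**Figure D2:**
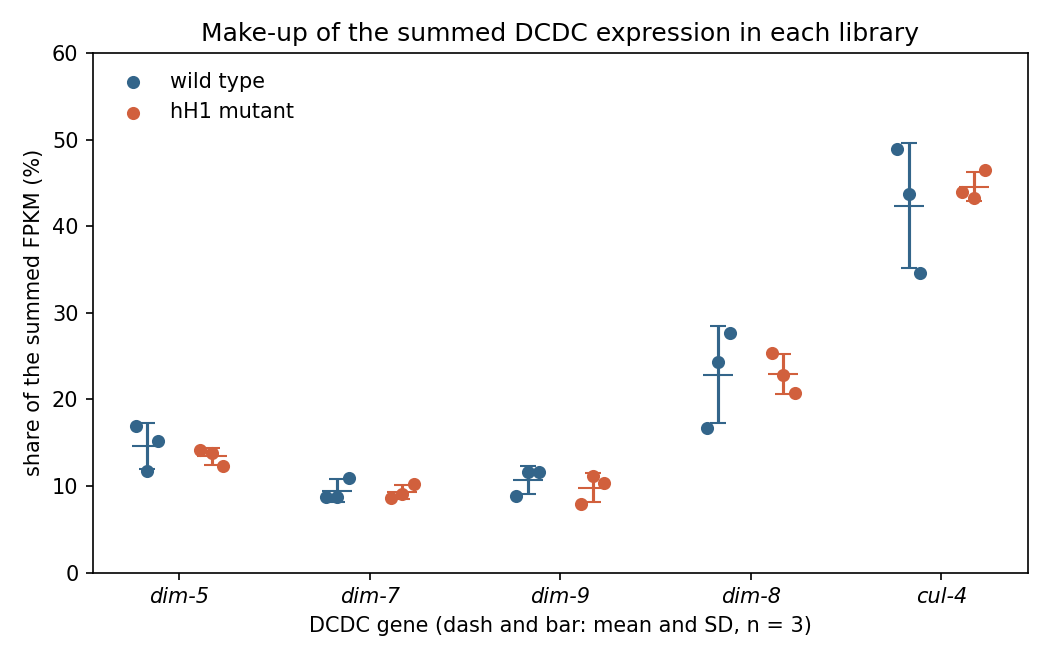
Share of each DCDC gene in the summed FPKM of the 5 genes (vertical axis, percent) in each library. Points are libraries, dashes and bars are means and SD (n = 3). *cul-4* holds 34.6% to 48.9% in the wild type and 43.2% to 46.5% in the mutant, and the strains overlap for all 5 genes.

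*hpo* encodes HP1, the reader of methylated H3K9, and lies on LG VI (2457115 to 2459498). It was the highest of the 8 genes, with 34.8, 40.3 and 47.0 FPKM in wild-type and 40.3, 41.9 and 44.1 FPKM in mutant libraries. The mutant values lay between the lowest and the highest wild-type library. Its log2 difference of 0.06 had the narrowest interval of the 8 (95% confidence interval -0.25 to 0.37, adjusted p = 0.818 from limma).

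*dim-2* encodes the DNA methyltransferase and lies on LG VII (3189797 to 3195483). Its level was 8.21, 7.12 and 7.82 FPKM in wild-type libraries, against 6.14, 5.67 and 5.13 FPKM in mutant libraries. Every mutant library was below every wild-type library, and the mean was 26.8% lower in the mutant (5.65 ± 0.503 against 7.72 ± 0.552 FPKM, SD, n = 3). The log2 difference was -0.39 (95% confidence interval -0.77 to -0.0097, unadjusted p = 0.0454), and it did not pass the threshold over all genes (adjusted p = 0.183, limma with Benjamini-Hochberg adjustment).

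*dmm-1* encodes the JmjC-domain protein that limits the spread of DNA methylation and lies on LG II (3098688 to 3103787). It was nearly the same in the 3 wild-type libraries, at 14.4, 14.4 and 14.6 FPKM, and lower in each mutant library, at 9.77, 11.5 and 10.5 FPKM. The mean was 26.8% lower in the mutant (10.6 ± 0.884 against 14.5 ± 0.135 FPKM, SD, n = 3). The wild-type coefficient of variation of 0.936% was below the 4.12% that counting alone would give, so these libraries were closer than their depth would make them on average. The log2 difference was -0.42 (95% confidence interval -0.74 to -0.10, unadjusted p = 0.0157), and the adjusted p was 0.111 (limma with Benjamini-Hochberg adjustment).

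Thus 0 of the 8 genes were called at an adjusted p under 0.05 (limma), where 4.99% of the 7208 tested genes were. That background of 360 genes changed when single libraries were left out, a step that also leaves fewer libraries to the fit. It was 29 genes without the first wild-type library, 119 without the second and 372 without the last. Without the first, second and last mutant library it was 217, 111 and 135 genes. At an unadjusted p under 0.05 there were 2 of 8, *dim-2* and *dmm-1*, against 25.9% of all tested genes. The same genes, 2 of 8, were the ones whose strains did not overlap, both lower in the mutant, where 21.8% of all tested genes were lower without overlap. The counts were close to those of all genes. The log2 difference was above 0 in 4 of the 8 genes and below 0 in the other 4, with a median of -0.03 beside -0.09 over all tested genes.

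**Figure D3:**
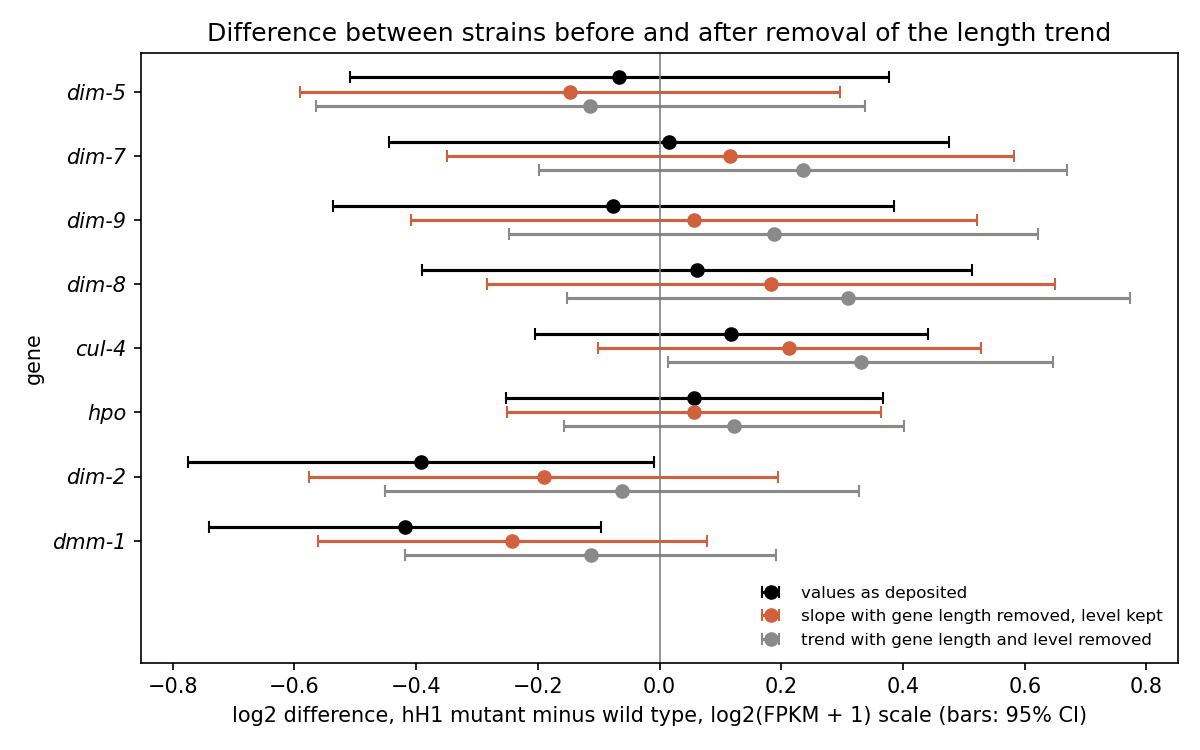
Log2 difference between the strains (horizontal axis, mutant minus wild type on the log2(FPKM + 1) scale) for the 8 genes, with 95% confidence intervals from limma. Black points use the values as deposited, orange points those with each library's slope with gene length removed, and grey points those with its level removed as well. For *dim-2* the difference is -0.39, -0.19 and -0.06, and for *dmm-1* it is -0.42, -0.24 and -0.11.

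The differences of *dim-2* and *dmm-1* were smaller when a trend with gene length was removed from the libraries. At 5687 and 5100 bases these are the longest of the 8 genes, longer than 96.8% and 94.3% of all tested genes. Over all genes the mutant values were lower the longer the gene, with a median log2 difference of 0.12 in the shortest and -0.28 in the longest of 5 equal groups of tested genes by length, and 86.9% of the 1442 longest were below 0. Among those 1442 genes, 31.1% of genes had a lower log2 difference than *dim-2* and 27.8% a lower one than *dmm-1*. Both thus stood in the lower middle of this group, which runs from 3596 to 34205 bases. Neither was ranked among genes of its own length alone. When the slope with length was removed from each library and its level kept, the log2 difference of *dim-2* was -0.19 (95% confidence interval -0.58 to 0.20, adjusted p = 0.561 from limma) and that of *dmm-1* was -0.24 (95% confidence interval -0.56 to 0.078, adjusted p = 0.360 from limma). A loess curve takes out the level of each library together with the trend, and moved the median of all tested genes from -0.09 to 0.02. With that curve subtracted, *dim-2* was at -0.06 (95% confidence interval -0.45 to 0.33, adjusted p = 0.873 from limma) and *dmm-1* at -0.11 (95% confidence interval -0.42 to 0.19, adjusted p = 0.675 from limma). Whether the trend comes from the RNA, the libraries or the cells was not tested.

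The other long genes did not share the lower values. *cul-4*, *dim-7*, *dim-8* and *dim-9*, at 3597 to 4220 bases, are also among the 1442 longest. That group runs from 3596 to 34205 bases, with *cul-4* and *dim-7* (3692 bases) at its short end. Ranks within it are therefore not ranks among genes of like length. The log2 differences of *cul-4*, *dim-7*, *dim-8* and *dim-9* were 0.12, 0.01, 0.06 and -0.08, higher than those of 93.9%, 88.4%, 91.3% and 80.1% of the group. They were 0.21, 0.12, 0.18 and 0.056 with the slope alone removed, and 0.33, 0.24, 0.31 and 0.19 with trend and level removed (adjusted p from limma 0.412 to 0.904 and 0.212 to 0.616). *dim-9* turned from below to above 0 by either step, and also by centring (0.029) or quantile normalization (0.071) of the libraries. The short genes *dim-5* (1685 bases) and *hpo* (2384 bases) were at -0.15 and 0.056 with the slope alone removed and at -0.11 and 0.12 with trend and level removed. *dim-5* was below 0 in all of these, but turned to 0.039 with centred libraries and to 0.071 with quantile normalization. *hpo*, *dim-7*, *dim-8* and *cul-4* stayed above 0 and *dim-2* and *dmm-1* below 0 under each of these scalings, and 0 of the 8 genes were called under any of them.

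**Figure D4:**
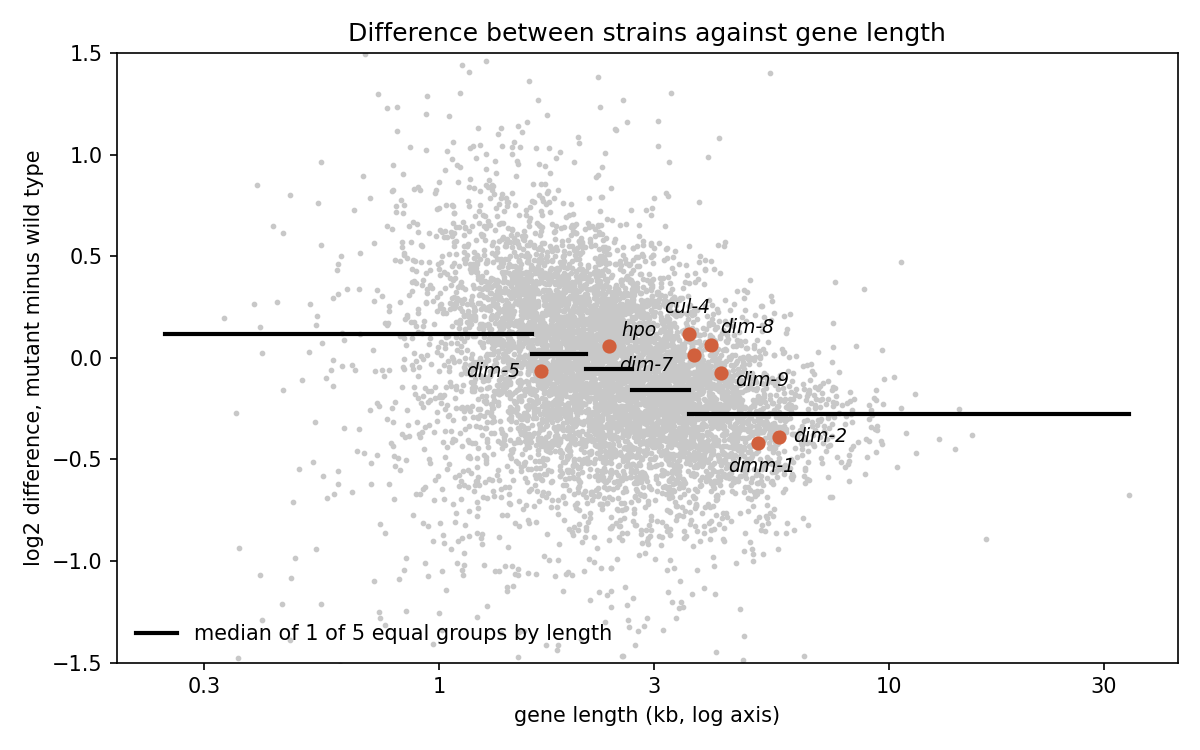
Log2 difference between the strains (vertical axis, mutant minus wild type) against gene length in kb (horizontal log axis) for the tested genes in grey and the 8 genes in orange, with black lines at the median of each of 5 equal groups by length. *dim-2* and *dmm-1* sit a little below the median of the 1442 longest genes (-0.28), the 4 other long genes sit above it, and 40 genes lie beyond the vertical axis.

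The order of the levels was largely the same in both strains. In the wild type it ran *hpo* (40.7 FPKM), *cul-4* (20.1), *dmm-1* (14.5), *dim-8* (11.0), *dim-2* (7.72), *dim-5* (7.02), *dim-9* (5.11) and *dim-7* (4.54). *hpo* was 2.02 times *cul-4*, and the first 3 of these genes did not overlap with their next neighbour in any library. From *dim-8* downward each gene overlapped with the next one, so their ranges do not set those neighbours apart. Within single libraries, *dim-2* was above *dim-5*, *dim-5* above *dim-9* and *dim-9* above *dim-7* in 3 of 3 wild-type libraries, and *dim-8* was above *dim-2* in 2 of 3. In the mutant the order was *hpo* (42.1 FPKM), *cul-4* (21.8), *dim-8* (11.2), *dmm-1* (10.6), *dim-5* (6.57), *dim-2* (5.65), *dim-9* (4.79) and *dim-7* (4.55). *dmm-1* thus stood behind *dim-8*, and *dim-2* behind *dim-5*, and both pairs overlapped within the mutant, although *dim-5* was above *dim-2* in each mutant library.

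Ratios within a library were compared as a measure that the scaling of a library cannot move, although they keep the difference in gene length. There was 1.13 ± 0.205 times as much *dim-2* as *dim-5* in the wild type and 0.859 ± 0.0201 times as much in the mutant (SD, n = 3). The ratio was 1.02, 1.37 and 1.00 in the wild-type libraries and 0.881, 0.841 and 0.857 in the mutant libraries, so the strains did not overlap. Counting alone would give coefficients of variation of 6.93% for *dim-2* and 12.3% for *dim-5* in the mutant. The mutant ratios were thus closer than their depth would make them on average. The DNA methyltransferase gene was level with or above the histone methyltransferase gene in the wild type and below it in the mutant. The exact permutation test gave p = 0.1 (two-sided), the smallest the design allows, and 0.4 after Benjamini-Hochberg adjustment over the 4 ratios tested. *dim-2* is the longest and *dim-5* the shortest of the 8 genes, and the log2 differences of these genes were close to each other once the slope with length was removed (-0.19 and -0.15) and in the other order with trend and level removed (-0.06 and -0.11).

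The other ratios overlapped between the strains. *dim-8* stood at 0.565 ± 0.230 of *cul-4* in the wild type and 0.516 ± 0.0660 in the mutant, *dim-7* at 0.890 ± 0.124 and 0.963 ± 0.137 of *dim-9*, and *hpo* at 6.03 ± 1.71 and 6.45 ± 0.818 times *dim-5* (SD, n = 3). The exact permutation p was 0.9, 0.5 and 0.8, each 0.9 after adjustment. RNA-seq of whole cultures cannot tell fewer cells in a given state from less RNA per cell.

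A list of 10 further genes around the same pathway was read in the same fit. It holds *hda-1*, *chap* and *cdp-2*, which encode partners of HP1 in the HCHC deacetylase complex, *dmm-2*, whose product acts with DMM-1, *rid-1*, the DNA methyltransferase homolog needed for RIP, *hH3*, the histone that DIM-5 modifies, *eth-1*, which makes the methyl donor S-adenosylmethionine, *crf5-1* (NCU06306), and the genes NCU01249 and NCU09120, which carry no symbol in the gene table. Of these, 9 passed the filter and 0 were called in either direction, against 4.99% of all tested genes, with 2 at an unadjusted p under 0.05, against 25.9%. Their median log2 difference was -0.05, beside -0.09 over all tested genes. The groups did not overlap in 3 genes that were lower (*dmm-2*, NCU09120 and *eth-1*) and in 1 that was higher (*hH3*), where 21.8% of all tested genes were lower and 10.4% higher without overlap.

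*dmm-2* (NCU08289, 4706 bases, LG IV) came closest to the threshold. Wild-type libraries had 16.8, 19.2 and 15.0 FPKM, and each mutant library was below them, with 10.5, 12.1 and 11.1 FPKM. Its log2 difference was -0.55 (95% confidence interval -0.89 to -0.21, adjusted p = 0.0651 from limma), which was -0.39 (adjusted p = 0.173) with the slope with length removed and -0.26 (adjusted p = 0.345) with trend and level removed. Its transcript T0 alone had a log2 difference of -0.69 (adjusted p = 0.144 from limma). Transcript T1 alone was at 0.057, a value that rests on the last mutant library. T1 had 4.18 FPKM there and at most 0.00056 FPKM in the other mutant libraries. *dmm-1* and *dmm-2* were both lower in each mutant library, as were 21.8% of all tested genes, and neither was called. Both are long genes. Among the 1442 longest genes, 13.5% had a lower log2 difference than *dmm-2*.

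*eth-1* (NCU02657) had 564, 513 and 485 FPKM in wild-type and 337, 461 and 415 FPKM in mutant libraries (log2 difference -0.37, adjusted p = 0.120 from limma). *hH3* (NCU01635) had 1815, 1966 and 1710 FPKM in wild-type and 2117, 2131 and 2023 FPKM in mutant libraries (log2 difference 0.19, adjusted p = 0.275 from limma). The HCHC genes overlapped between the strains, with log2 differences of 0.14 for *hda-1*, -0.12 for *chap* and -0.05 for *cdp-2*, the last of which turned to 0.052 when libraries were centred and to 0.049 with the length trend and level removed. The difference of NCU09120 was -0.19, and it was -0.0084 with the slope removed and 0.12 with trend and level removed. *rid-1* (NCU02034) was below the filter and was not tested. The wild-type libraries held 0.841, 0.713 and 0.909 FPKM of it, and the mutant libraries held 0, 0.229 and 0.237 FPKM. It lies 246 kb from *matA-1*, the gene that marks the difference in strain background. *eth-1*, NCU09120 and *cdp-2* are also on LG I, at 1229, 3543 and 5509 kb from *matA-1*.

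The genes most like *dim-2* and *dim-5* were sought among the 7207 other tested genes, by the root mean square difference of log2(FPKM + 1), centred on each gene's mean, over the 6 libraries. For *dim-2* these were NCU02402 (0.0389), NCU05010 (0.0477) and NCU04249 (0.0513). NCU02402 had 14.3, 11.7 and 13.3 FPKM in wild-type and 10.5, 9.57 and 9.40 FPKM in mutant libraries. Like *dim-2*, it was lower in each mutant library and lowest among the wild-type libraries in the second. The lengths of NCU02402, NCU05010 and NCU04249 are 4342, 2607 and 1922 bases. *dim-2* is longer than 96.8% of all tested genes, so nearly any gene would be shorter. For *dim-5* they were *mig-4* (NCU09040, 0.0399), NCU09629 (0.0682) and NCU09787 (0.0712). *mig-4* had 234, 164 and 222 FPKM in wild-type and 192, 197 and 176 FPKM in mutant libraries, with the same low second wild-type library. With 6 libraries and this many genes, some profiles come out alike, and the likeness is a description.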

How the data were processed

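RNA-seq covered 3 wild-type and 3 *hH1* mutant libraries. Per the submitters' processing notes, reads were aligned with TopHat2 2.0.14 and quantified with Cuffnorm (version not given in the sources used here), on the NC12 assembly. The authors deposited FPKM per annotated transcript, a unit the paper calls RPKM, with replicates kept apart and the scaling between libraries not stated. Summed FPKM was 551935 to 572043 in the wild-type libraries and 626049 to 639266 in the mutant libraries. Scaling of the libraries to equal sums was not among the alternatives run. The table holds 10785 transcripts, and 0 of its columns were left unused. Its column numbers are not the replicate numbers of the labels. The ChIP-seq and MNase-seq samples were not analysed here. No marker list was used to check the labelled tissue, mycelium. For the same inoculum and growth time, the MNase methods of the paper speak of germinated conidia.

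Transcripts were summed to 9730 genes. Genes whose mean over the 6 libraries reached 1 FPKM were tested as log2(FPKM + 1), a scale that understates changes of low genes. The test was limma 3.58.1 in R 4.3.3 (lmFit, then eBayes with a variance trend), two-sided, and a gene was called at a Benjamini-Hochberg adjusted p under 0.05. Confidence intervals are limma's. Ratios of genes were compared by an exact permutation test, with 20 ways to label the libraries. Symbols, positions and lengths (first to last base, introns included) came from a RefSeq gene table of NC12, which held all 8 genes. For the length alternative, a loess curve of each library's deviation from the gene mean against log2 length was subtracted, which also removes the library's level. In a further alternative only the slope with length was removed. A pair of libraries shared at most 3 equal values above 0, so no library was a copy.

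Depth was estimated from low values of 8823 genes with 1 transcript. For each library, the depth was sought at which most values came within 0.1 of a whole number of fragments, after 200 bases were subtracted from the length. At that depth 40.6% to 53.3% of 249 to 696 low values were whole, against a median of 16.1% to 18.5% at other depths, since genes with introns cannot come out whole. Fragments per gene are upper values for genes with introns. Coefficients of variation from counting are the square root of the mean of 1 over these fragments and cover counting error only. The limma and depth steps were tested on simulated data.

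The genes named were the 8 members, *hH1* and *matA-1* as checks, a list of 10 further pathway genes, and the 3 genes most like each of *dim-2* and *dim-5*. The members were matched by identifier, but the choice of this gene set and of the lists was made with earlier results of these data known. Alternatives were the pseudocount, the filter, centring and quantile normalization, the length trend and its slope, limma's variance settings, single transcripts, and leaving out each library. Other steps ran in Python 3.11.15 with scipy 1.17.1, pandas 2.3.3, numpy 2.4.6 and matplotlib 3.10.9.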

Additional observations from a re-analysis of the deposited data

How the results depend on the processing

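The count of called genes among the 8 was 0 under every alternative run, and so was that among the 10 further pathway genes. The adjusted p from limma ranged from 0.140 to 0.873 for *dim-2* and from 0.0985 to 0.675 for *dmm-1*, the highest in each case with the length trend and level removed. Over all tested genes, 360 were called (125 higher, 235 lower), against 281 higher and 140 lower with centred libraries, 158 and 173 with quantile normalization, 124 and 96 with trend and level removed, 69 and 165 with the slope removed, 188 in all with no filter, 135 without a variance trend and 45 with single transcripts. Of 126 alternative values of the 8 genes, 110 kept their direction and 16 turned, all in genes whose log2 difference was near 0. Centring moved the median log2 difference of all tested genes by 0.10, and turned *dim-5* to 0.039, *dim-9* to 0.029 and *cdp-2* to 0.052. Quantile normalization turned *dim-5* to 0.071, *dim-9* to 0.071 and *cdp-2* to 0.063. Removal of trend and level turned *dim-9* to 0.19, *cdp-2* to 0.049 and NCU09120 to 0.12, and removal of the slope alone turned *dim-9* to 0.056. As single transcripts, T1 of *dmm-2* was at 0.057 and T0 at -0.69, and T0 of *eth-1* was at 0.13 and T1 at -0.45. T1 of *hH1* was at -0.15 and T0 at -8.03. The cause was not tested.

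With each library left out in turn, the log2 difference ranged from -0.24 to 0.033 for *dim-5*, -0.074 to 0.15 for *dim-7*, -0.18 to 0.039 for *dim-9*, -0.13 to 0.25 for *dim-8*, 0.034 (without the last wild-type library) to 0.23 (without the first) for *cul-4*, -0.047 to 0.16 for *hpo*, -0.041 to 0.17 for NCU01249 and -0.26 to 0.062 for *cdp-2*. *dim-5*, *dim-7*, *dim-8*, *hpo* and NCU01249 turned without the first wild-type library, *dim-7* without the second, and *dim-5* and *dim-9* without the last. *dim-8* and *dim-9* turned without the first mutant library, NCU01249 and *cdp-2* without the second, and *dim-7* and *cdp-2* without the last. That of *dim-2* stayed between -0.44 and -0.34, and that of *dmm-1* between -0.48 and -0.37. The log2 ratio, mutant minus wild type, ranged from -0.46 to -0.23 for *dim-2* to *dim-5* (-0.23 without the second wild-type library), from -0.38 to 0.24 for *dim-8* to *cul-4*, from -0.0076 to 0.23 for *dim-7* to *dim-9* and from -0.090 to 0.33 for *hpo* to *dim-5*. With the highest transcript of each gene or with medians, each wild-type level moved by less than 1 SD. The filter of 5 FPKM leaves out *dim-7*, *dim-9* and *crf5-1*. No paired analysis was possible because the columns carry none of the replicate numbers in the labels. Depth limits *dim-5* most, with at most 128 estimated fragments in a library.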
